A study of Mus musculus with 6 samples.

Results

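The genes described here are the fibroblast growth factors (FGFs) Fgf1, Fgf2, Fgf7, Fgf10 and Fgf22, the receptors Fgfr1, Fgfr2, Fgfr3 and Fgfr4, and the receptor-like gene Fgfrl1, as measured in mouse leg muscle at and away from the neuromuscular junction (NMJ). They were taken by symbol from a list of 10, and a gene was measured where an array row carried its symbol and no other. This held for 9 of the 10, among 14860 distinct genes with such a row. Fgf2 shared its row with Bbs12 and was not analysed here. Each of the 9 had 1 row.

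FGFs are secreted proteins that bind tyrosine kinase receptors on the cell surface together with heparan sulfate, a sugar chain of the cell coat and matrix. Activated receptors signal through adaptor proteins to the Ras and ERK kinases, which raise the transcription of ETS factors and of inhibitors that damp the pathway. At the mouse NMJ, Fgf7, Fgf10 and Fgf22 are known as muscle-derived signals that help organise the motor nerve terminal through a form of Fgfr2 on the axon.

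Tibialis anterior, a fast muscle of the lower leg, came from 16-week-old mice of the outbred ICR strain, with no genotype or treatment that differed between groups. Sections were stained for acetylcholinesterase for 10 min, 9973 junctions were cut out by laser capture (the NMJ group), and an equal area without junctions was cut from the same fibres (the non-NMJ group). Each group had 3 arrays, each hybridised with amplified cDNA from 10 ng of RNA. How many animals were used, and which arrays share one, is not stated in the labels. The p-values therefore rest on the spread between arrays alone, and would be too small where arrays of a region come from 1 animal. No slide or scan batch is given. A cut region holds fibre, nerve terminal, Schwann cells, matrix cells and vessels together, so more cells of a type and more RNA per cell cannot be told apart.

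The labels were checked on genes known from each structure. Chrna1 and Chrne, which encode subunits of the acetylcholine receptor, were 59.5-fold and 56.9-fold higher in NMJ regions, Musk, the agrin-responsive kinase of the fibre membrane, showed a 13.1-fold rise, and Ache, whose enzyme guided the capture, a 47.6-fold rise (limma adjusted p between 1.02e-05 and 1.99e-05). All 8 measured myofibre markers stood above the 95th percentile of olfactory receptor genes (a reference for dim rows), and 6 of them were lower in NMJ regions. Pearson correlations over all rows were 0.988 to 0.990 among NMJ arrays, 0.980 to 0.983 among non-NMJ arrays and 0.953 to 0.961 between the groups. Of 23332 rows, 23% were called different by limma at an adjusted p under 0.05, 14.4% as higher and 8.63% as lower in NMJ regions. Of the calls, 62.5% were higher. With quantile normalization that share was 46.6%, and with the arrays centred on their medians it was 41.7%. The median difference of all rows was -0.01 on the log2 scale.

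Values are log2 expression from RMA, the array summary that the authors used, and differences are NMJ minus non-NMJ. With no detection calls at hand, 719 rows of olfactory receptor genes, which muscle is not known to use, served as a reference for dim rows. The 95th percentile of their mean values was 4.09. A gene whose means in both regions lay below it is called dim here. This was so for Fgf7, Fgf10 and Fgfr2, while the other 6 measured genes stood above it in at least 1 region.

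Of the 9 measured genes, Fgf1, Fgf10 and Fgfr1 were higher in NMJ regions and Fgfrl1 was lower, while Fgf7, Fgf22, Fgfr2, Fgfr3 and Fgfr4 did not pass the test. The share called was thus 4 of 9, where 23% of all rows were called. By direction, 3 of 9 rose against 14.4% of all rows, and 1 of 9 fell against 8.63%. The median difference of the 9 was -0.09, close to that of all rows, since most of the family stayed within 0.5 of 0 and Fgf1 stood far from the rest. The members and the lists used here were chosen with results of these arrays known, so these shares are descriptions.

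**Figure D1:**
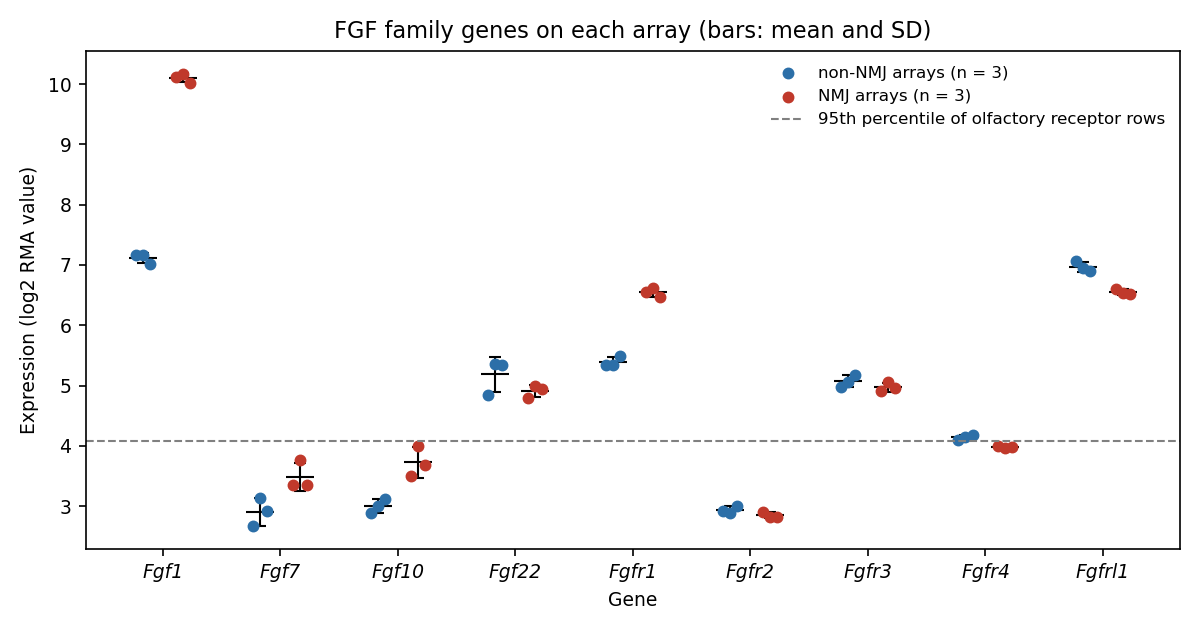
Log2 RMA value (vertical axis) of the 9 measured FGF family genes (horizontal axis) on each of the 3 NMJ arrays (red) and 3 non-NMJ arrays (blue), with the mean and SD of each group and the 95th percentile of the olfactory receptor rows (4.09, dashed). Fgf1 and Fgfr1 show a clear gap between the groups, Fgfrl1 a smaller gap in the other direction, and Fgf7, Fgf10 and Fgfr2 lie below the dashed line.

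Among the 4 measured ligands of the family list, Fgf1 showed the largest difference. It encodes acidic FGF, which binds all 4 signalling FGF receptors and lacks a classical secretion signal. On the log2 scale it measured 10.13, 10.16 and 10.02 at junctions against 7.16, 7.16 and 7.01 away from them. Every NMJ array stood above every non-NMJ array, and the spread within a region was small beside the gap. The mean rose from 7.11 ± 0.09 to 10.10 ± 0.08 (SD, n = 3 per region), a 7.96-fold difference (log2 difference 2.99 ± 0.09, SE, 95% interval 2.77 to 3.21, limma adjusted p = 1.77e-05). Among the 14996 rows with 1 symbol, this was the 96th largest rise. Its difference stayed between 2.85 and 3.03 in all 15 other settings tried and was called in each. Among the 15, averaging a gene's rows could not change the difference of a gene with 1 row.

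The genes with the profile most like that of Fgf1, by the root mean square distance between centred log2 values over the 6 arrays, were Smoc2 (distance 0.05), Col15a1 (0.06) and Vps39 (0.07). Smoc2 encodes a secreted calcium-binding protein of the matrix, Col15a1 a collagen of the basement membrane zone, and Vps39 a subunit of a lysosomal tethering complex. Their folds were 7.75, 8.19 and 7.64. Over 6 arrays in 2 regions, a small distance means little more than a like difference between the regions.

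Fgf7, Fgf10 and Fgf22 form a subfamily that binds the same form of Fgfr2. Fgf10 had log2 values of 3.50, 4.002 and 3.68 at junctions against 2.89, 3.002 and 3.11 away from them. The regions did not overlap, and Fgf10 rose 1.65-fold (log2 difference 0.73 ± 0.15, SE, n = 3 per region, 95% interval 0.36 to 1.09, limma adjusted p = 0.0174). The row was dim, so its fold is that of values near the background reference. The call was lost without NMJ replicate 3 (adjusted p = 0.0506), non-NMJ replicate 1 (0.0552) or non-NMJ replicate 2 (0.051).

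Fgf7, also called keratinocyte growth factor, had values of 3.35, 3.76 and 3.35 at junctions against 2.67, 3.13 and 2.91 away from them. The arrays of the regions did not overlap here either, as in 41% of all rows, but the test was not passed (log2 difference 0.59 ± 0.17, SE, n = 3 per region, 95% interval 0.17 to 1.00, limma adjusted p = 0.055). Among the filters on rows, it was passed at an adjusted p of 0.0399 when the dimmest 25% were left out and 0.0237 when only rows with 1 symbol were used. Over the alternatives its adjusted p ran from 0.0237 to 0.14. The row was dim as well.

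Fgf22, the member of this subfamily known as an organiser of presynaptic terminals in mouse brain, had values of 4.80, 4.99 and 4.94 at junctions against 4.85, 5.35 and 5.35 away from them. The regions overlapped, because non-NMJ replicate 1 lay among the NMJ arrays. The log2 difference was -0.28 ± 0.16 (SE, n = 3 per region, 95% interval -0.66 to 0.11, limma adjusted p = 0.286), an interval that leaves room for a rise of at most 0.11. Without non-NMJ replicate 1 the difference was -0.44 and passed (adjusted p = 0.0437).

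Fibroblast markers were higher in the same NMJ arrays: 9 of 12 were called higher and 0 lower (14.4% and 8.63% of all rows). Their summed linear signal was 10258 to 10694 on NMJ arrays and 3404 to 3665 on non-NMJ arrays. In each list such a sum is weighted towards the brightest rows, here Dcn. Of the Schwann cell markers 8 of 9 were called higher and 0 lower (against the same shares of all rows), with sums of 2204 to 2292 and 321 to 373. The exceptions were Pi16, Mfap5 and Tcf21 among the fibroblast markers and Gfra3 among the Schwann cell markers, of which Tcf21 and Gfra3 were dim. Col15a1, named above, is a member of the fibroblast list. Of the satellite cell markers 2 of 9 were called higher and 1 lower, near the shares of all rows, with sums of 424 to 488 and 358 to 404. Sdc4, a satellite cell marker called higher, is also counted among the co-receptors below. Of the macrophage markers 3 of 8 were called higher and 1 lower (against the same shares of all rows), with sums of 537 to 625 and 420 to 466. The part of these cells in the differences of Fgf1, Fgf7, Fgf10 and Fgfr1 was not tested.

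Among the receptors, Fgfr1 alone was called higher. It encodes the receptor best known from myoblasts and fibroblasts. Its values were 6.55, 6.62 and 6.47 at junctions against 5.35, 5.35 and 5.49 away from them. The lowest NMJ array stood well above the highest non-NMJ array. The mean rose from 5.39 ± 0.08 to 6.55 ± 0.08 (SD, n = 3 per region), a 2.23-fold difference (log2 difference 1.16 ± 0.09, SE, 95% interval 0.94 to 1.37, limma adjusted p = 4.74e-04). The call held in all 15 alternatives, with differences of 0.90 to 1.20. Among these, averaging a gene's rows could not change the difference of Fgfr1, which had 1 row.

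Fgfr2, the receptor of the Fgf7 subfamily in epithelia and axons, had values of 2.90, 2.83 and 2.82 at junctions against 2.92, 2.88 and 3.01 away from them. The regions overlapped, and the row was dim. The log2 difference was -0.09 ± 0.08 (SE, n = 3 per region, 95% interval -0.29 to 0.11, limma adjusted p = 0.517). Motor neuron cell bodies are not in these muscle sections, so their Fgfr2 RNA was not measured. The gene-level values do not tell apart the splice forms that set ligand choice in Fgfr1, Fgfr2 and Fgfr3.

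Fgfr3, known for restraining bone growth, had values of 4.90, 5.05 and 4.96 at junctions against 4.98, 5.06 and 5.18 away from them. The regions overlapped (log2 difference -0.10 ± 0.09, SE, n = 3 per region, 95% interval -0.33 to 0.13, limma adjusted p = 0.503). Fgfr4, a receptor of muscle progenitors, had values of 4.001, 3.96 and 3.98 at junctions against 4.10, 4.15 and 4.18 away from them. All NMJ arrays stood below all non-NMJ arrays, but by little (log2 difference -0.16 ± 0.08, SE, 95% interval -0.35 to 0.02, limma adjusted p = 0.194). Its call depended on scaling: it passed as lower after quantile normalization (-0.25, adjusted p = 0.0441) and after median centring (-0.30, adjusted p = 0.0321). For Fgfr2, Fgfr3 and Fgfr4 the intervals of the RMA values reached at most 0.13, whereas the interval of Fgfr1 began at 0.94. The Fgfr2 row was dim, and the NMJ mean of Fgfr4 (3.98) lay below the reference of 4.09. As RMA values compress differences near background, the intervals of Fgfr2 and Fgfr4 do not bound a rise in RNA.

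Fgfrl1 encodes a receptor that binds FGFs but lacks the tyrosine kinase domain, and mice without it lack slow fibres in the diaphragm. Its values were 6.60, 6.53 and 6.52 at junctions against 7.06, 6.95 and 6.89 away from them. The regions did not overlap, as in the lower direction in 18.2% of all rows. The fall of Fgfrl1 was 1.34-fold (log2 difference -0.42 ± 0.09, SE, n = 3 per region, 95% interval -0.63 to -0.21, limma adjusted p = 0.0169). The call was lost without NMJ replicate 1, 2 or 3 (adjusted p = 0.0561, 0.0668 and 0.0593) or non-NMJ replicate 1 (0.0503), while the direction stayed the same. Jph2, a protein that ties the sarcoplasmic reticulum to the fibre membrane, Rasgrf2, a Ras exchange factor, and Zfp280b, a zinc finger gene, had the profiles nearest to it, at distances of 0.02 each and differences of -0.42, -0.42 and -0.41. Myofibre markers were lower in the same NMJ arrays, 6 of 8 of them called (8.63% of all rows), with summed linear signals of 45511 to 46610 against 58048 to 60038 on non-NMJ arrays. Of the endothelial markers 6 of 10 were called lower and 0 higher (8.63% and 14.4% of all rows). Their sums were 889 to 957 against 1165 to 1309. Of the mural cell markers of vessels 5 of 9 were called lower and 1 higher (against the same shares of all rows). Their sums were 1617 to 1700 against 2475 to 2742, with most weight on the brightest row, Rgs5 (log2 means 9.28 and 10.46). The part of these cells in the fall of Fgfrl1 was not tested.

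**Figure D2:**
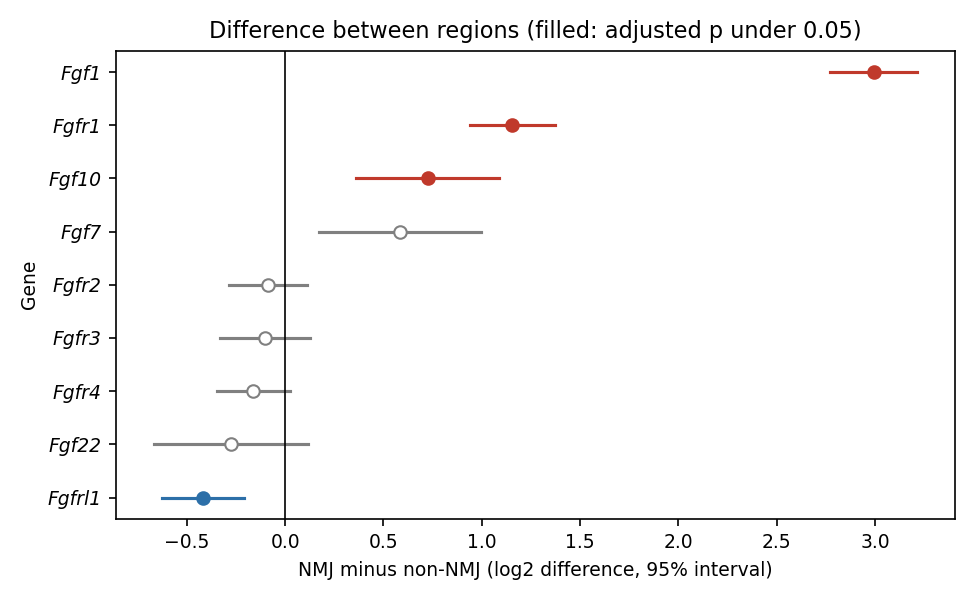
NMJ minus non-NMJ difference on the log2 scale (horizontal axis) with its 95% interval for each measured FGF family gene (vertical axis, ordered by difference), 3 arrays per region; filled points passed an adjusted p of 0.05, red as higher and blue as lower. Fgf1 at 2.99 and Fgfr1 at 1.16 lie farthest to the right, 5 genes lie below 0, and Fgfrl1 at -0.42 is the only filled blue point.

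The other Fgf genes were mostly without a called difference, with 1 exception that exceeded Fgf1. Of 17 further Fgf genes listed, 15 had a row with their symbol alone, and 2 of these were called higher and 1 lower (14.4% and 8.63% of all rows). Their median difference was -0.04. Fgf5, a secreted FGF known for ending hair growth and for supporting motor neurons in culture, had log2 values of 8.78, 8.75 and 8.70 on the NMJ arrays. On the non-NMJ arrays its values were 3.36, 3.39 and 3.85, below the olfactory receptor reference of 4.09. The gap was over 4 on the log2 scale between the closest arrays of the regions.

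The rise of Fgf5 was 37.0-fold (log2 difference 5.21 ± 0.15, SE, n = 3 per region, 95% interval 4.84 to 5.57, limma adjusted p = 1.77e-05). Among rows with 1 symbol it was the 11th largest rise. As the non-NMJ values were dim, the fold is that of the RMA values, which compress differences near background. Fgf13 rose 2.23-fold (log2 difference 1.16 ± 0.14, SE, limma adjusted p = 0.0025). It is no secreted ligand but an intracellular FGF homologous factor that binds sodium channels and microtubules. Fgf14, another such factor, fell by 0.31 on a dim row (limma adjusted p = 0.0489), a call made in 6 of 13 alternatives, with adjusted p-values from 0.0143 to 0.152, and lost on omission of any array other than non-NMJ replicate 2. Fgf23, the bone hormone that controls phosphate, stood at 0.35, short of the threshold (limma adjusted p = 0.091), and was called higher in 2 of 14 alternatives, namely when the dimmest 50% of rows were left out and when only rows with 1 symbol were used (lowest adjusted p 0.0422). With all rows tested, Fgf1 and Fgf5 were thus the secreted ligands outside the dim range that were called higher among the 19 Fgf genes with a row of their own.

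**Figure D3:**
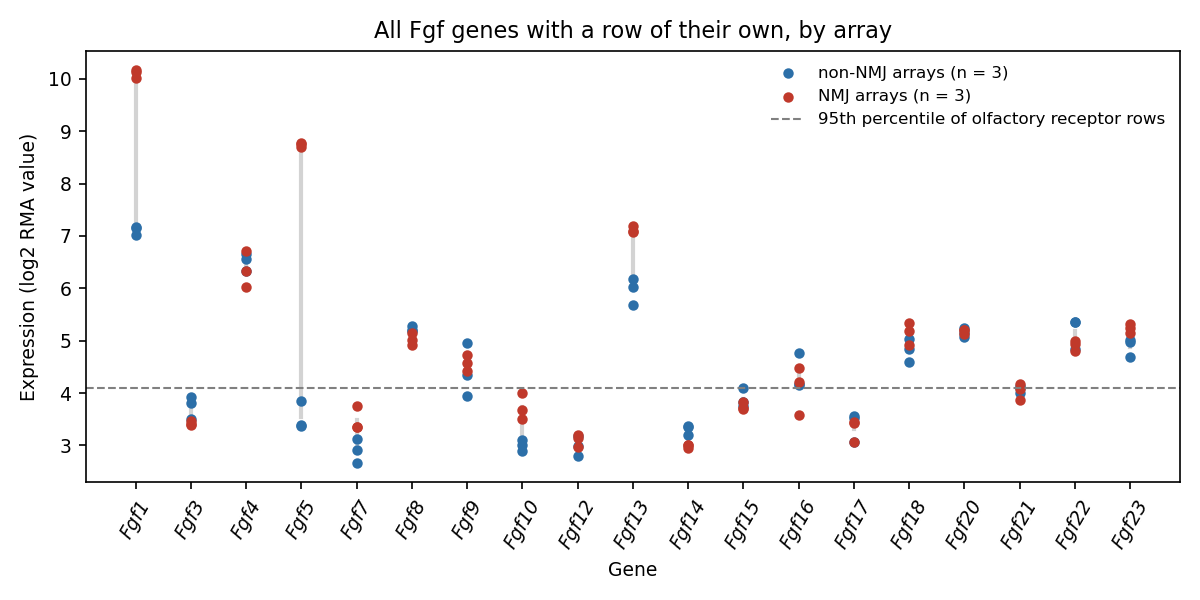
Log2 RMA value (vertical axis) of all 19 Fgf genes with a row of their own (horizontal axis) on the 3 NMJ arrays (red) and 3 non-NMJ arrays (blue); grey lines join the region means, and the dashed line is the 95th percentile of the olfactory receptor rows (4.09). Long grey lines belong to Fgf5 and Fgf1, a shorter line to Fgf13, and 8 genes have both means below the dashed line.

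Promoters are shown for Fgf5, Fgf10 and Fgfrl1, which were called, with Chrne beside them. Fgfr1 had no entry among the promoters used, and those of the called genes Fgf1, Fgf13 and Fgf14 were not looked up. Synaptic genes of muscle such as Chrne are known to carry an N-box, the letters CCGGAA, which ETS factors bind, and muscle promoters often carry E-boxes, the letters CANNTG, which myogenic factors bind. The windows are the 250 bases before the gene start on the coding strand, from RefSeq (GRCm38.p6). Capitals mark CCGGAA or its reverse complement TTCCGG and CANNTG, which reads the same on both strands; no matches overlap in these windows. The Fgf5 window is chr5:98253934-98254183 (plus strand), that of Fgf10 chr13:118714449-118714698 (plus strand), that of Fgfrl1 chr5:108693979-108694228 (plus strand) and that of Chrne chr11:70619195-70619444 (minus strand).
Fgf5: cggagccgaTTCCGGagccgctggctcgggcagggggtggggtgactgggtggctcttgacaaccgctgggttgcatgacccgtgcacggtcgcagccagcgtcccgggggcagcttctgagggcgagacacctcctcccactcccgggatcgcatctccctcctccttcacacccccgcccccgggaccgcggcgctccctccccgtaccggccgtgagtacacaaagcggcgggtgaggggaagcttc
Fgf10: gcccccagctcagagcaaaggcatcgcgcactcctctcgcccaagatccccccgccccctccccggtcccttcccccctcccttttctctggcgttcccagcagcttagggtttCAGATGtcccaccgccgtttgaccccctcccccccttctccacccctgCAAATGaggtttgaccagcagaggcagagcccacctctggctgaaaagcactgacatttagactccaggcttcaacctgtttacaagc
Fgfrl1: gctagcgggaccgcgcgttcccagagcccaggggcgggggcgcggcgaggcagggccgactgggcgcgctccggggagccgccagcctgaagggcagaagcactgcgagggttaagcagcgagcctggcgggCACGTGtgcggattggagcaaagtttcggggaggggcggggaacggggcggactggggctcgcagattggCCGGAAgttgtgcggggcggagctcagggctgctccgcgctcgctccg
Chrne: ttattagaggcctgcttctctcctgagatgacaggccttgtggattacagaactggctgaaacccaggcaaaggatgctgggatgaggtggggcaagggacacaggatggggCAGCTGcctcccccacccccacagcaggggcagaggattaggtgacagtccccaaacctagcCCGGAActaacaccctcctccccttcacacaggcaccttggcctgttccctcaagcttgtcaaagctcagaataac

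CCGGAA or TTCCGG occurred in 12% of 32851 promoter windows of this length, and CANNTG in 66.2%. In Chrne, CCGGAA began 76 bases before the start. In Fgf5, which rose, TTCCGG began 241 bases before the start, and the window held no CANNTG. In Fgf10, which also rose, CANNTG occurred 136 and 88 bases before the start and the N-box letters did not occur. In Fgfrl1, which fell, CCGGAA began 48 bases and CANNTG 118 bases before the start. The N-box letters thus stood in the windows of a gene that rose and of a gene that fell. Of the remaining genes looked up, Fgfr4 held both CCGGAA and CANNTG. Fgf7, Fgf22 and Fgfr2 held CANNTG only, as did 1 of the 2 windows of Fgfr3.

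Genes whose products present FGFs to their receptors or modify heparan sulfate were more often called higher than lower. Of 20 co-receptors, heparan sulfate carriers and their modifying enzymes, all with a row, 11 were called higher and 1 lower (14.4% and 8.63% of all rows), with a median difference of 0.53. Hs6st2, which adds sulfate at the 6-O position of heparan sulfate, a group that FGF signalling needs, had values of 9.87, 9.75 and 9.55 at junctions against 3.32, 3.57 and 3.68 away from them (log2 difference 6.20 ± 0.13, SE). Its non-NMJ values were in the dim range. Ncam1, an adhesion molecule that can bind Fgfr1, differed by 5.60 ± 0.13 (SE). Hspg2, the basement membrane proteoglycan perlecan, differed by 2.08, and Sulf1, an enzyme that removes 6-O sulfate, by 1.31.

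Gpc1, a glypican of the cell surface, was the member that fell, by 0.69 (limma adjusted p = 0.00233). Gpc1 and the following genes of this list were named after their values were seen. The FGF receptor partners Flrt2 and Flrt3 rose by 1.89 and 1.83 on the log2 scale. Kl and Klb, the co-receptors of the hormone-like FGFs, had differences of -0.06 and 0.11 on dim rows and were not called. Fgfbp1, a carrier that frees FGFs from the matrix, had a difference of -0.05 on a dim row. Of the higher calls, that of Sulf2 (0.385, limma adjusted p = 0.0282) was made in 6 of 14 alternatives. It was lost after quantile normalization, after median centring and on omission of any single array.

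Inside the cell, 9 of 18 measured signal transducers were called higher and 2 lower (14.4% and 8.63% of all rows), with a median difference of 0.33; the list had 27 genes, and the other 9 had no row with 1 symbol. Map2k1, the kinase that activates ERK, had values of 10.43, 10.41 and 10.29 at junctions against 7.90, 7.90 and 7.67 away from them. It rose 5.88-fold (log2 difference 2.55 ± 0.10, SE, limma adjusted p = 4.47e-05). Plcg1, a phospholipase that activated FGF receptors bind, differed by 1.63, the adaptor gene Crkl by 0.90 and Pik3r1, a regulatory subunit of PI3 kinase, by 1.17. The 2 that fell were Map2k2, the partner of Map2k1, by 0.63, and the phosphatase gene Ptpn11, by 0.46. They were named after their values were seen. The call of Ptpn11 was lost without NMJ replicate 1, 2 or 3 or non-NMJ replicate 1 or 2 (adjusted p up to 0.0775), and Map2k2 was called in all 14 alternatives. Frs3, an adaptor that docks on FGF receptors, had a difference of -0.24 and was not called (limma adjusted p = 0.116). It passed as lower after quantile normalization and after median centring. Of the higher calls, those of Gab1 and Cbl were made in 7 and 6 of 14 alternatives, and both were lost under these scalings.

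Genes known as targets and feedback inhibitors of FGF and ERK signalling showed the highest share of calls of these lists. Of 15 measured (18 listed), 12 were called higher and 0 lower (14.4% and 8.63% of all rows), with a median difference of 2.99 against -0.01 over all rows. Etv5, an ETS factor induced by FGFs, had values of 12.55, 12.52 and 12.54 at junctions against 6.84, 6.86 and 6.75 away from them. Dusp6, the phosphatase that switches off ERK, had values of 11.81, 11.66 and 11.80 at junctions against 6.58, 6.73 and 6.43 away from them. In each of these genes the groups were separated by more than 4 on the log2 scale.

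The Sprouty genes Spry1 and Spry2, which encode inhibitors of receptor kinase signalling, differed by 4.36 ± 0.09 and 2.99 ± 0.08 (SE). The 3 members without a call were Il17rd, Spred3 and Myc, at -0.03, 0.12 and 0.15. Il17rd encodes Sef, a membrane inhibitor of FGF signalling. These genes also respond to other receptors that act through ERK, among them the ErbB receptors, and which receptor acted was not measured. Without NMJ replicate 2 the list had 11 higher calls, and without any other array it had 10. The calls that were lost were that of the immediate early gene Egr1 each time and that of Fos, another such gene, without the other arrays. Their differences were 0.40 and 0.46, and both calls were also lost after quantile normalization and median centring.

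**Figure D4:**
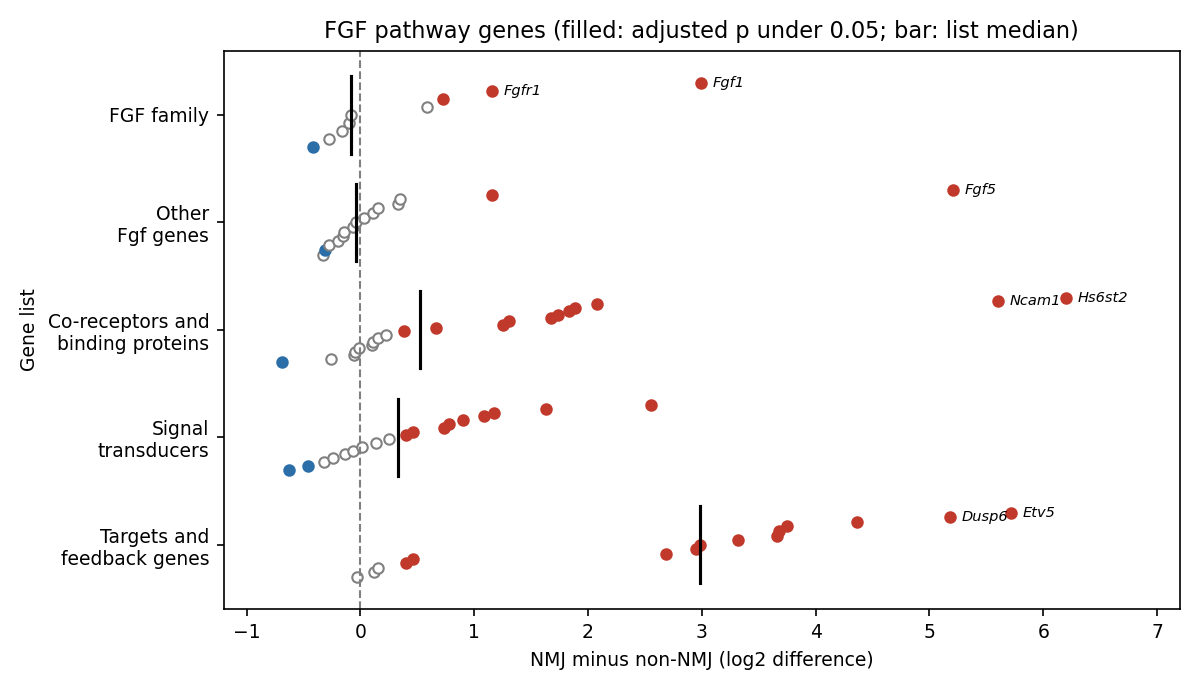
NMJ minus non-NMJ difference on the log2 scale (horizontal axis) for each gene of the FGF family and of 4 pathway lists (vertical axis), 3 arrays per region; filled points passed an adjusted p of 0.05 (red higher, blue lower), black bars are list medians and the dashed line is the median of all rows (-0.01). The targets and feedback genes lie mostly beyond 2.5, with a median of 2.99, while the median of the FGF family is -0.09.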

How the data were processed

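Gene expression was measured on 6 mouse exon arrays, 3 per region. The deposited values are gene-level log2 values that the authors obtained by RMA, which corrects background, normalizes the arrays and summarises probes. The submitters' processing notes name Affymetrix Expression Console together with Transcriptome Analysis Console. For program settings and the genome build, nothing is given in the sources used here. That the scale is log2 follows from the range of the values (0.87 to 13.97). Of 23332 rows, 14996 carried 1 gene symbol, 1019 several and 7317 none in the platform's gene table; 14941 of those with 1 symbol matched RefSeq by gene identifier, with 0 symbols changed. Where a gene had several rows the row with the highest mean was used.

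All rows were tested with limma 3.58.1 (R 4.3.3; lmFit, then eBayes, no covariate, 2-sided), with Benjamini-Hochberg adjustment over all rows; called means an adjusted p under 0.05. No low-value filter was applied. The step was tested on simulated data (23332 rows, each with its own observed spread). It recovered 2.99% of 67 rows shifted by 0.5 (log2), 55.2% of 67 shifted by 1 and 83.3% of 66 shifted by 2. There were 2 false calls. In the data 23% of rows were called, so the adjustment was stricter in the simulation. The recovered shares are therefore not the power of the test on the data. Precision is limited by the number of arrays.

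The members and gene lists were chosen with earlier results of these data known. All measured members were named, with Chrna1, Chrne, Musk and Ache, up to 4 genes with the smallest unadjusted p per list, all called genes of a list with 4 or fewer, and the 3 nearest profiles of the members with the largest rise and fall. Alternatives were a replicate block, median centring, quantile normalization, leaving out dim or unnamed rows, another variance prior, array weights, means over a gene's rows, a 2-fold minimum and the omission of each array. Counts of alternatives given for single genes leave out the 2-fold minimum.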

Additional observations from a re-analysis of the deposited data

How the results depend on the processing

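Under the alternatives, no difference of a measured FGF family gene changed sign. Fgf1 and Fgfr1 were called in all 15 of theirs, Fgf10 in 11 of 14 and Fgfrl1 in 11 of 15. These counts include averaging a gene's rows, which could not change the differences of genes with 1 row. They leave out the 2-fold minimum, which Fgf10 and Fgfrl1 did not reach. Array medians of the deposited values were 4.49 to 4.53 on NMJ arrays and 4.37 to 4.38 on non-NMJ arrays. Median centring shifts all differences by the same amount, here downwards because the NMJ medians were higher. The median difference over all rows went from -0.01 to -0.15 with centring. It left 3690 rows called lower, and quantile normalization 3294, against 2013. Under both scalings 2 FGF family genes were lower, Fgfr4 being added, and 2 co-receptors and binding proteins were lower. Among the other Fgf genes 2 (quantile) and 3 (centring) were lower, and among the signal transducers 6 and 4. Signal transducers called higher numbered 7 under each scaling, against 9.

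The replicate numbers are shared between regions, but same-numbered arrays did not deviate together throughout (correlations of deviations 0.05, 0.04 and 0.18), and NMJ replicate 2 did not correlate best with its own number. With the replicate block, 3209 rows were called higher and 1855 lower, 4 FGF family genes higher (Fgf7 passing at an adjusted p of 0.0244) and 0 other Fgf genes lower. The block left 10 targets and feedback genes higher, without Egr1 and Fos. The count of lower other Fgf genes was also 0 without the dimmest 50% of rows and with a trended, robust prior. A 2-fold minimum left 1285 rows higher and 356 lower. It left 2 FGF family genes higher, without Fgf10, and 4 signal transducers higher, with 0 lower in the family and in each list.

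Omission of single arrays left 2220 to 2879 rows higher and 1133 to 1888 lower, 2 to 3 FGF family genes higher and 0 to 1 lower, 0 to 2 other Fgf genes lower, 1 to 2 co-receptors lower and 1 to 2 transducers lower. Signal transducers called higher numbered 7 to 9 on these omissions. The family's count of lower genes was 0 whichever of the 3 NMJ arrays was omitted. The cause of these changes was not tested, beyond the fewer arrays or rows that some alternatives hold by construction.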
